A study of Mus musculus with 18 samples.

Results

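The prostaglandin genes of the mouse uterus were followed through the deposited lists of m6A peaks that differed between treatments. The 10 genes were the cyclooxygenases Ptgs1 and Ptgs2, the terminal synthases Ptges, Ptges3 and Ptgis, the receptors Ptger2, Ptger3, Ptger4 and Ptgfr, and the inactivating enzyme Hpgd. A peak was given to one of them where its deposited annotation named a transcript of the gene, or where the gene was the one assigned to it and the centre of the peak lay between the gene's start and end. By this rule the genes held 20 of the 40929 peaks used, spread over 9 of the 10 genes. Ptges held none. By the same rule 11895 genes in all held a peak, and the share of all genes with a peak in any table was not computed.

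The uteri came from wild-type ICR mice of 8 weeks, taken on day 5 of pregnancy. Mice of all 3 treatments were injected into the abdomen daily on days 1 to 4. The injection was saline as vehicle in Veh and LPS mice, and melatonin at 10 mg/kg in Mel+LPS mice. By the study's methods the melatonin was dissolved in saline with ethanol, and whether the vehicle held ethanol is not stated there. On days 3 and 4, LPS and Mel+LPS mice also received lipopolysaccharide (a bacterial cell wall component that sets off inflammation) at 0.5 mg/kg. It was given by the same route, 30 minutes after the daily injection. Each of the 3 treatments had 3 input and 3 immunoprecipitated (IP) libraries, 18 in all, and the IP libraries were enriched with an antibody against m6A. The methylation differences were deposited as 4 tables: peaks higher in LPS than Veh (LPS up), lower in LPS than Veh (LPS down), higher in Mel+LPS than LPS (Mel+LPS up) and lower in Mel+LPS than LPS (Mel+LPS down). The LPS libraries take part in all 4 tables, so the lists of LPS vs Veh and of Mel+LPS vs LPS are not independent of each other. Mice given melatonin alone, and Mel+LPS against Veh, were not analysed here.

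Each peak has 1 value per comparison, the log10 likelihood ratio, in which the authors' comparison set a model with different signal in the 2 treatments against one with equal signal. A larger value favours the model with a difference. Its size is therefore strength of evidence rather than a fold change, and its lowest value over the tables was 1.01. There is no value per library, so nothing below has a replicate error or a p-value, the read depth behind a score is unknown, and the direction of a peak is that of the table it stands in. The tables hold no RNA levels. The labelled tissue could not be checked against marker genes, and whether the amount of a transcript moved with its peak was not tested. The table of LPS down peaks is complete for chromosomes 1 to 9 only, which carry 7 of the 10 genes. Ptges3 on chromosome 10, Ptger2 on chromosome 14 and Ptger4 on chromosome 15 could not be read in it.

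Prostaglandins are lipid signals made from arachidonic acid. The cyclooxygenases convert it to the unstable intermediate prostaglandin H2, terminal synthases turn that intermediate into prostaglandin E2, prostacyclin and others, and receptors coupled to G proteins detect the products on target cells. In the rodent uterus the pathway is known for its part in embryo implantation and in decidualization, the conversion of stromal cells that follows, and also for its induction in inflammation. N6-methyladenosine (m6A) is a mark on adenosines of mRNA that is placed mostly within the 5-base motif DRACH. Here the first letter, D, stands for any base but C, the second, R, for a purine, and the last, H, for any base but G, and the adenosine before the C is the one methylated. The mark is most frequent near stop codons and in 3′UTRs, where reader proteins act on the stability and translation of the transcript.

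By the assignment rule, more of the prostaglandin genes stood in LPS up and Mel+LPS down than in the opposite tables, but in both comparisons this depended on how peaks were assigned. LPS up peaks were found in 6 of 10 genes (Ptgs1, Ptges3, Ptger3, Ptger4, Ptgfr and Hpgd), where 20.1% of all 21887 protein-coding genes held such a peak by the same rule. LPS down peaks were found in 2 of 7 genes (Ptgs2 and Hpgd), beside 22.0% of the 11966 protein-coding genes on chromosomes 1 to 9. Mel+LPS up peaks were found in 1 of 10 genes (Ptges3), beside 25.6% of all genes. Mel+LPS down peaks were found in 6 of 10 genes (Ptgs1, Ptges3, Ptgis, Ptger2, Ptgfr and Hpgd), beside 15.3%. By the assigned gene alone, the GENCODE span or GENCODE exons, Mel+LPS up was found in 4, 5 and 4 genes and Mel+LPS down in 6, 6 and 4. On chromosomes 1 to 9, where LPS down could be read, LPS up was found by the rule in 4 of the 7 genes and LPS down in 2. By GENCODE exons on these chromosomes, LPS up was found in Ptgs1, Ptger3 and Ptgfr, and LPS down in Ptgs2, Ptges and Ptgis. The share of all genes was not computed for LPS up on these chromosomes alone, nor by the assigned gene or the span. By the rule, the share among the prostaglandin genes was above that of all genes in LPS up and Mel+LPS down, close to it in LPS down and below it in Mel+LPS up. All protein-coding genes include many that the uterus does not express, and no test was made on a group of 10 chosen genes.

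**Figure D1:**
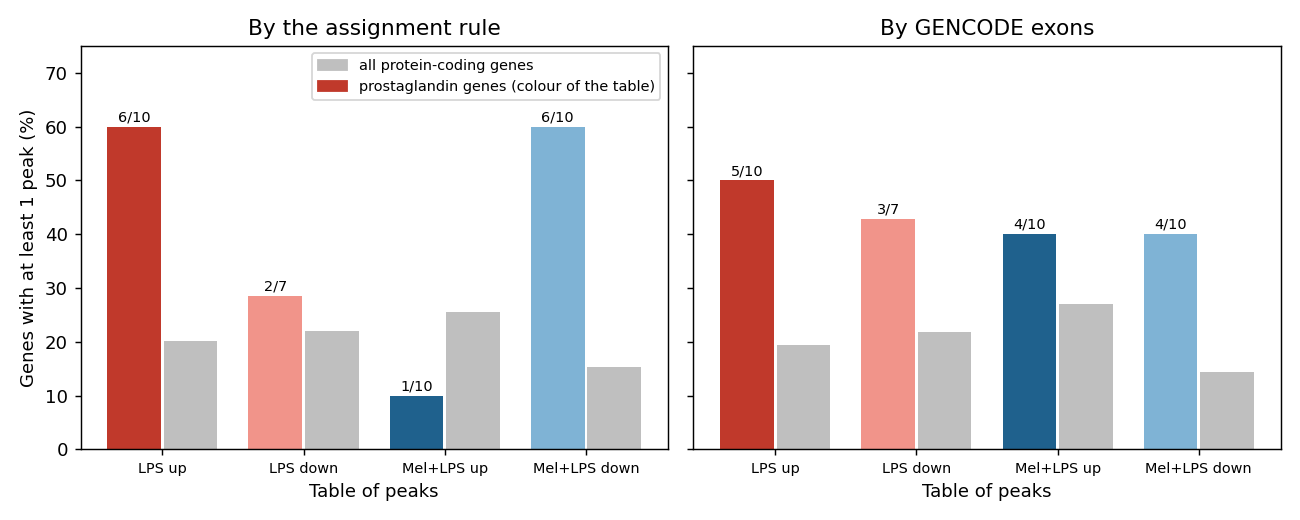
Share of genes with at least 1 peak (%, vertical axis) in each of the 4 tables, for the prostaglandin genes (coloured bars, with the number of genes above) and for all protein-coding genes (grey bars); left, by the assignment rule, right, by overlap with an exon of the GENCODE transcript. By the rule 6 of 10 genes stood in LPS up and 6 of 10 in Mel+LPS down against 1 of 10 in Mel+LPS up, and by exons 5, 4 and 4 of 10 did.

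At 4 of the 10 genes (Ptgs1, Ptges3, Ptgfr and Hpgd) an LPS up peak overlapped a Mel+LPS down peak, beside 8.29% of all protein-coding genes. By the rule, none of the 7 on chromosomes 1 to 9 had an LPS down peak overlapping a Mel+LPS up peak, beside 8.61% of genes. By GENCODE exons 1 of the 7, Ptges, did at 2 sites, beside 9.50%. Both lists are measured against the same LPS libraries, so such pairs are given below with the score of each comparison side by side.

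Most scores were modest. The 9 LPS up peaks of the prostaglandin genes had a median score of 3.06 (1.50 to 8.02), where the median of all LPS up peaks was 2.88. The 7 Mel+LPS down peaks had a median of 1.38 (1.20 to 8.14), below the median of 3.09 of that whole table, and only 1 of the 7 was above it. The 2 Mel+LPS up peaks scored 1.36 and 1.91, both below their table's median of 2.17. The 2 LPS down peaks scored 5.95 and 21.3, both above the median of 2.65. In all, 8 of the 20 peaks scored above the median of their own table. The strongest evidence for a difference thus stood at 2 genes, Ptgs2 and Hpgd, the inflammation-induced maker and the inactivator of prostaglandins.

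**Figure D2:**
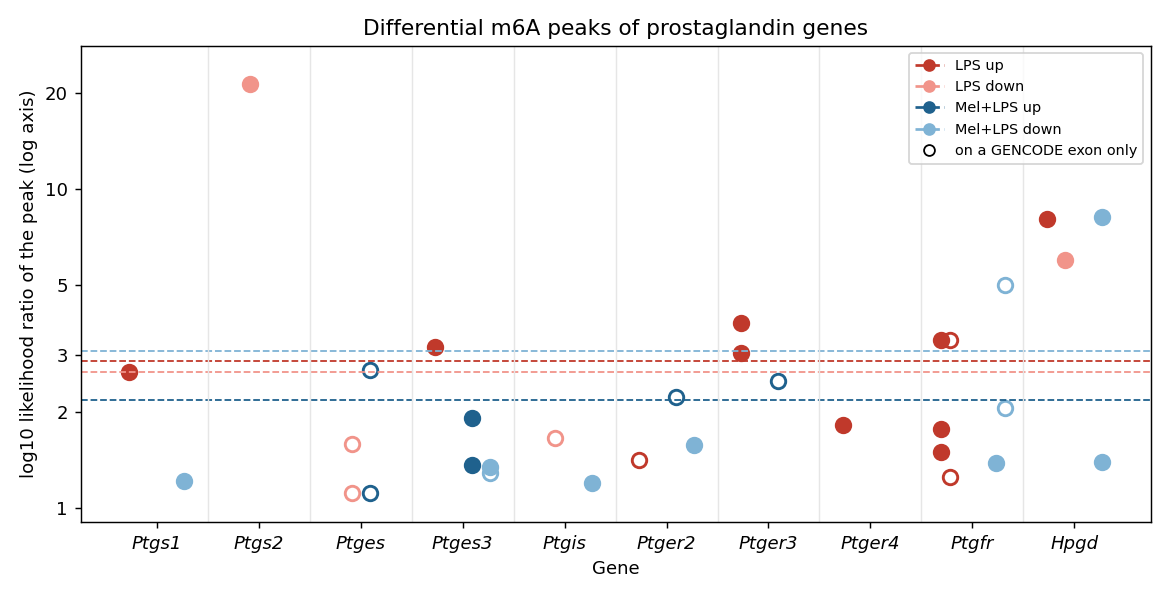
Score of each peak (log10 likelihood ratio, vertical log axis) by gene (horizontal axis), coloured by table, with filled circles for peaks given to the gene by the rule, open circles for peaks found only by GENCODE exons, and dashed lines at the median of all peaks of each table. Ptgs2 has a single LPS down peak at 21.3, Hpgd has peaks at 8.02 and 8.14 in LPS up and Mel+LPS down, and most other circles lie between 1 and 4.

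Ptgs2 encodes cyclooxygenase 2, the form that inflammatory signals and the implanting embryo induce. It held 1 peak in all, an LPS down peak of 241 bases at chr1:150107606-150107846 (GRCm38, + strand), in the 3′UTR within the last exon, 10 of 10. The score of 21.3 was above 99.1% of the LPS down peaks and ranked 54 of 6259. It was the highest score among the prostaglandin genes. The peak began 1827 bases after the last base before the stop codon and ended 2067 bases after it, in a 3′UTR of 2445 bases. It held 9 DRACH motifs, or 37.3 per 1000 bases, against 24.0 per 1000 over the whole Ptgs2 transcript. None of the 9 was GGACT. The 3′UTR of Ptgs2 is rich in ATTTA, the core of the AU-rich elements known to destabilise inflammatory mRNAs, with 14 copies, and 1 of these lay in the peak. Neither Mel+LPS table listed a peak anywhere in Ptgs2, so no Mel+LPS difference was called at this site in either direction. Its absence from the tables does not show that Mel+LPS and LPS were equal there. The DRACH nearest to the middle of the peak, in capitals and with its flanks as read from the GENCODE transcript sequence (chr1:150107713-150107737), shows the AT-rich setting of the site.
Ptgs2 3′UTR, LPS down: ctgacattttAGACAttttgaaggc

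Ptgs1 encodes cyclooxygenase 1, the form that many tissues make constantly. It went the other way from Ptgs2 in LPS: its peak stood in LPS up (chr2:36252088-36252342, GRCm38, + strand) with a score of 2.66, above 47.0% of that table. The Mel+LPS down table listed the same site (chr2:36252096-36252277) with a score of 1.21, above only 4.58% of its peaks, and the peaks shared 182 bases. Both lay at the very end of the 3′UTR in exon 11 of 11, from 740 bases after the last coding base to the end of the transcript, and both ran past the end of the GENCODE exon at 36252272. The 4 DRACH motifs on the exon in these peaks included 1 GGACT, the form of DRACH that is methylated most often. Its 3′UTR of 921 bases holds no ATTTA, unlike that of Ptgs2. The motif nearest the middle of the shared bases (chr2:36252181-36252205) and the GGACT (chr2:36252157-36252181) are printed next, with the motif in capitals.
Ptgs1 3′UTR, middle: tcttggttggAAACCaccacagttc
Ptgs1 3′UTR, GGACT: gggaacagatGGACTcatctatgat

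Among the terminal synthases, Ptges encodes microsomal prostaglandin E synthase 1, the inducible enzyme that works with cyclooxygenase 2. The rule gave it no peak, because the peaks on its 3′UTR were assigned in the tables to Gm52550, a predicted noncoding gene that RefSeq places inside Ptges and whose own span does not reach them. By overlap with the exons of the GENCODE transcript, which for shared sites was chosen with the values in view, Ptges had 2 sites on its last exon, 3 of 3 (GRCm38, - strand), each in LPS down and in Mel+LPS up. The site just after the stop codon (chr2:30892260-30892574) scored 1.58 in LPS down and 2.70 in Mel+LPS up, with 278 shared bases. It began 6 bases after the last coding base. The distal site (chr2:30889868-30890043), 2537 to 2712 bases after the last coding base, scored 1.11 in LPS down and 1.11 in Mel+LPS up. All these scores but one were below the median of their table. No exon of another GENCODE protein-coding transcript overlapped these peaks, and the tables give no strand. The pairs are printed because their directions were opposite to those at Ptgs1, with the motif nearest the middle of the shared bases in capitals (chr2:30892448-30892472 and chr2:30889963-30889987).
Ptges 3′UTR, proximal: gggtcctgggTAACCtgggcgagtg
Ptges 3′UTR, distal: tctggactcaAGACAggtggctcca

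A further 5 peaks were assigned to Ptges but lay upstream of the gene, with centres at -2763 to -2072 bases from the GENCODE gene start, and so stood just outside the rule. The tables classed all 5 as promoter. One site scored 4.70 in LPS up (chr2:30931869-30932002) and 4.95 in Mel+LPS down (chr2:30931890-30932002). The other scored 4.05 in LPS up (chr2:30932465-30932788) and 3.44 in Mel+LPS down (chr2:30932464-30932788). Between them an LPS down peak (chr2:30932063-30932237) scored 1.93. The upstream peaks therefore stood in both directions of LPS vs Veh. No exon of the GENCODE transcript used reached them, and the nearest one lay 28572 to 29168 bases away.

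Ptges3 encodes the cytosolic prostaglandin E synthase, also known as p23, a cochaperone of Hsp90. It held 4 peaks by the rule, on chromosome 10 (GRCm38, + strand), with both directions in Mel+LPS. In intron 1 of 7 an LPS up peak (chr10:128061300-128061492) scored 3.19 and a Mel+LPS down peak (chr10:128061293-128061465) scored 1.34. They shared 166 bases and lay 2014 and 2007 bases from the nearest exon, so neither peak reached an exon. Mel+LPS up peaks lay elsewhere: in the 5′UTR (chr10:128059150-128059283, score 1.91) and at exon 3 of 8 (chr10:128069266-128069447, score 1.36), of which only 20 bases were on the exon. A Mel+LPS down peak on the 3′UTR (chr10:128077071-128077186, score 1.28) was assigned to the neighbouring gene Atp5b and was found only by exon overlap. RefSeq lists a Ptges3 pseudogene, Ptges3-ps, and how reads shared with it were counted is not given in the sources used here.

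Ptgis encodes prostacyclin synthase, whose product relaxes vessels and acts in the implanting uterus. Its peak by the rule was Mel+LPS down in intron 3 of 9 (chr2:167225108-167225229, GRCm38, gene on the - strand). The score of 1.20 was above 4.14% of the table, and the peak lay 47 bases from an exon. The gene assigned to it was the predicted Gm52569, whereas its annotation named a Ptgis transcript. An LPS down peak on the 3′UTR (chr2:167203082-167203257, score 1.65) was assigned to 1110018N20Rik and was found only by exon overlap. The site of 1 comparison was not that of the other.

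Receptors held 8 of the 20 peaks by the rule, 6 in LPS up and 2 in Mel+LPS down. LPS down could not be read for Ptger2 and Ptger4, and by exon overlap Ptger2 and Ptger3 also held Mel+LPS up peaks. Ptgfr encodes FP, the receptor of prostaglandin F2α, best known for luteolysis and contraction. It held 4 of the 8 peaks given to receptors by the rule, on chromosome 3 (GRCm38, - strand). The LPS up peak around its stop codon (chr3:151801393-151801790) scored 3.36, and the Mel+LPS down peak at the same place (chr3:151801505-151801794) scored 1.38, above 13.7% of its table. They shared 286 bases. The LPS up peak ran from 163 bases before to 234 bases after the last coding base and held 16 DRACH motifs, or 40.2 per 1000 bases, against 21.9 per 1000 over the transcript. At 398 bases it was also among the wider peaks of the group. Further LPS up peaks lay in the 3′UTR (chr3:151801146-151801264, score 1.50) and in the coding part of exon 2 of 3 (chr3:151835559-151835700, score 1.77), neither of which had a Mel+LPS partner.

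The 3′UTR of Ptgfr is long, 5122 bases with 14 copies of ATTTA, and the distal part held 2 more sites that the tables called intergenic. They were found by overlap with the GENCODE exon. At the first (chr3:151798317-151798569), 3058 to 3310 bases after the last coding base, LPS up scored 3.36 and Mel+LPS down 2.06. At the second (chr3:151797598-151797774), 3853 to 4029 bases after it, LPS up scored 1.25 and Mel+LPS down 4.98, the latter above 79.7% of its table. Counting these, Ptgfr had 3 sites on 1 exon that were each up in LPS and down in Mel+LPS, with different ratios of the paired scores. Sites of 1 transcript share its reads and are not separate replicates. The GGACT nearest the middle of the site at the stop codon (chr3:151801618-151801642) has its adenosine 3 bases before the last coding base, directly ahead of the stop codon TAA. It is printed with the motifs of the distal sites (chr3:151798405-151798429 and chr3:151797667-151797691), all in capitals.
Ptgfr stop codon: gagtgaagctGGACTgtaaatcaat
Ptgfr 3′UTR, first distal: atattatgccTGACTctaaaatttt
Ptgfr 3′UTR, second distal: cagaatataaAGACTggaactgtac

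**Figure D3:**
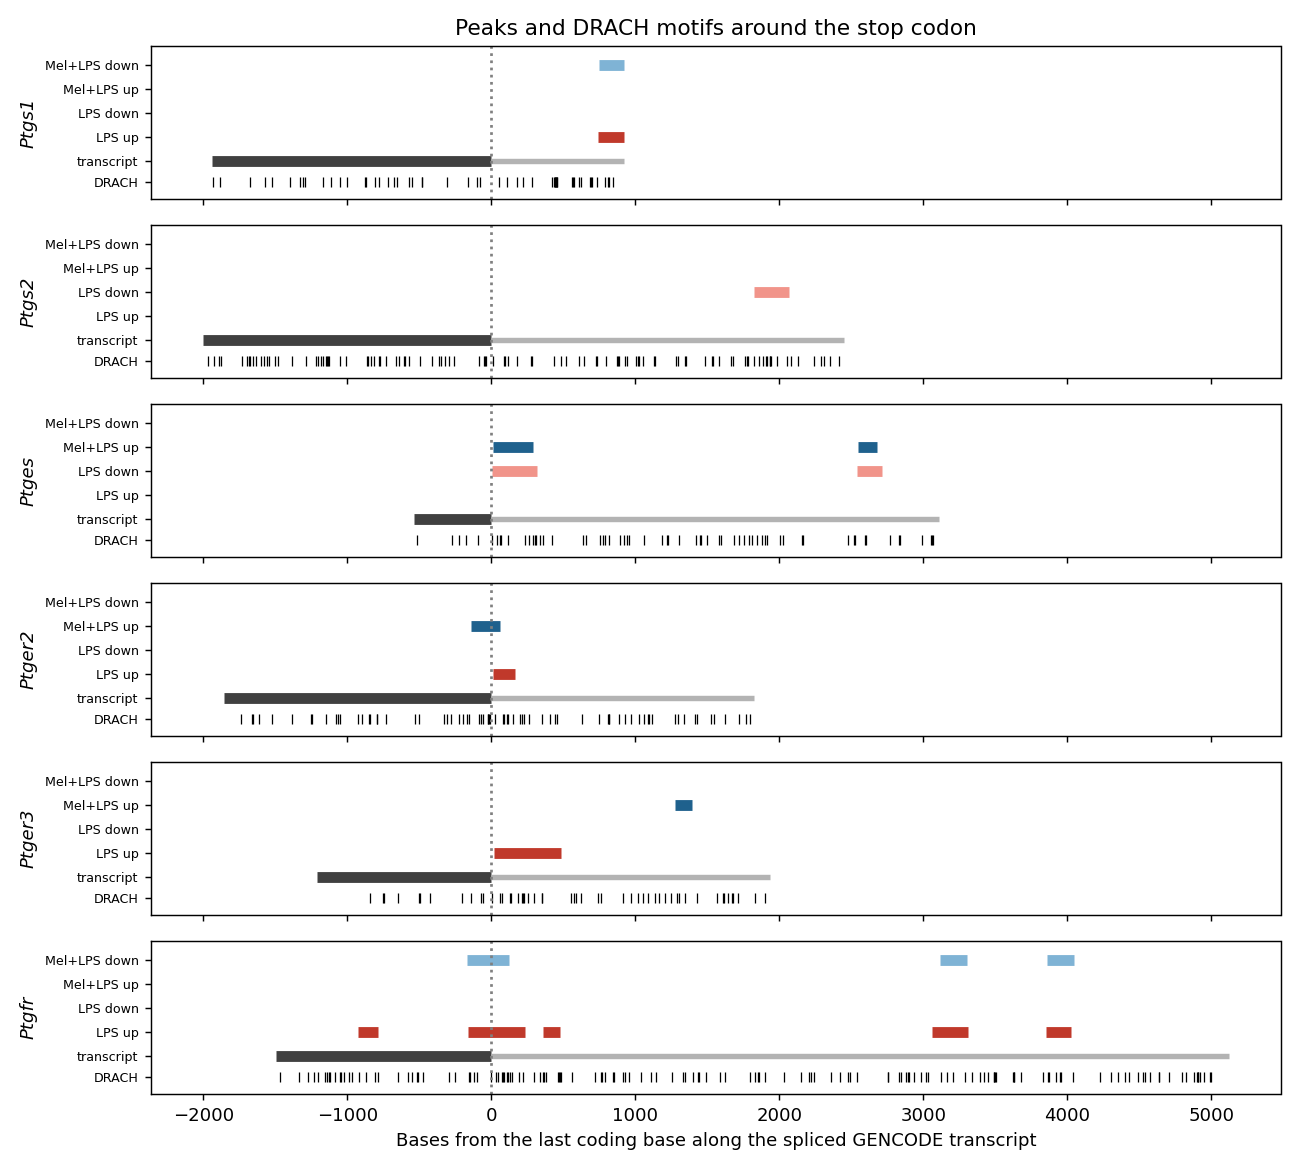
Spliced GENCODE transcripts of 6 genes aligned at the last coding base (horizontal axis, bases; dotted line at 0), with the 3′UTR in light grey, the upstream part in dark grey, DRACH motifs as ticks and the peaks of each table as coloured bars. Ptgfr has 3 places where LPS up and Mel+LPS down bars coincide, Ptges has 2 where LPS down and Mel+LPS up bars coincide, and the Ptgs2 bar stands alone from 1827 to 2067.

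Ptger3 encodes EP3, a prostaglandin E2 receptor that lowers cyclic AMP. Both of its peaks by the rule were LPS up (chromosome 3, GRCm38, + strand). The 3′UTR peak (chr3:157643970-157644437) scored 3.06 and, at 468 bases, was the widest of the 20, with 12 DRACH motifs, 1 of them GGACT. It began 18 bases after the last coding base. The other peak (chr3:157630291-157630409) scored 3.78 and lay in intron 2 of the GENCODE transcript, 13466 bases from the nearest exon. No Mel+LPS down peak was listed on Ptger3. A Mel+LPS up peak further along the 3′UTR (chr3:157645229-157645345, score 2.50), called intergenic in the table although Ptger3 was its nearest gene, was found only by exon overlap and did not touch the LPS up peak. The motif nearest the middle of the wide peak is shown in capitals (chr3:157644193-157644217).
Ptger3 3′UTR, LPS up: attgatagtcTGACTcttctaaata

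Ptger2 and Ptger4 encode EP2 and EP4, which raise cyclic AMP, and EP2 is known for its part in decidualization. Ptger2 (chromosome 14, GRCm38, + strand) held 1 peak by the rule, Mel+LPS down in its only intron (chr14:44998673-44998834, score 1.57), 2916 bases from the nearest exon. The antisense gene Gm17173 spans the whole of Ptger2, and without a strand their unspliced reads cannot be told apart. No exon of another GENCODE gene lay under this peak or under those on the last exon. On the last exon, 2 peaks found by exon overlap stood in the same direction in both comparisons. The LPS up peak (chr14:45002007-45002155) scored 1.41 and the Mel+LPS up peak (chr14:45001854-45002054) scored 2.23. They shared 48 bases just after the stop codon. The tables assigned both to Ptger2, but to a transcript that ends before them. Ptger2 was the only one of the 10 genes with such a pair on its exons, beside 0.930% of GENCODE protein-coding genes. Ptger4 (chromosome 15, GRCm38, - strand) held 1 LPS up peak, in the coding part of exon 2 of 3 (chr15:5242706-5242936, score 1.82), and no Mel+LPS peak by the rule. A Mel+LPS up peak in the GENCODE span of Ptger4 (chr15:5217421-5217602, score 1.49) lay on an exon of Ttc33, on the other strand. The motifs of the pair on Ptger2 (chr14:45002003-45002027) and of the coding peak of Ptger4 (chr15:5242847-5242871) are in capitals.
Ptger2 last exon: cttcatgaggGAACCtctgaagaag
Ptger4 exon 2: aggcactgtgTGACTatagcacctt

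Hpgd encodes 15-hydroxyprostaglandin dehydrogenase, which begins the breakdown of prostaglandin E2 and F2α. It held 4 peaks (chromosome 8, GRCm38, + strand), and its strongest pair stood in intron 6 of 6. The LPS up peak (chr8:56319558-56319692) scored 8.02, above 93.3% of that table, and the Mel+LPS down peak (chr8:56319558-56319691) scored 8.14, above 95% of its own. The peaks started at the same base and shared 134 bases. This was the only pair of the 10 genes with a score above 6 in both comparisons. The site lay 366 bases from the nearest exon of the GENCODE transcript. A further intron, 4 of 6, held an LPS down peak (chr8:56315374-56315511) with a score of 5.95, above 85.8% of its table, so that Hpgd stood in both directions of LPS vs Veh. A Mel+LPS down peak at exon 3 of 7 (chr8:56298394-56298589) scored 1.39 and had 69 bases on the exon. All of the higher scores of Hpgd were therefore in introns. The sequences of the intronic sites were not used here.

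**Figure D4:**
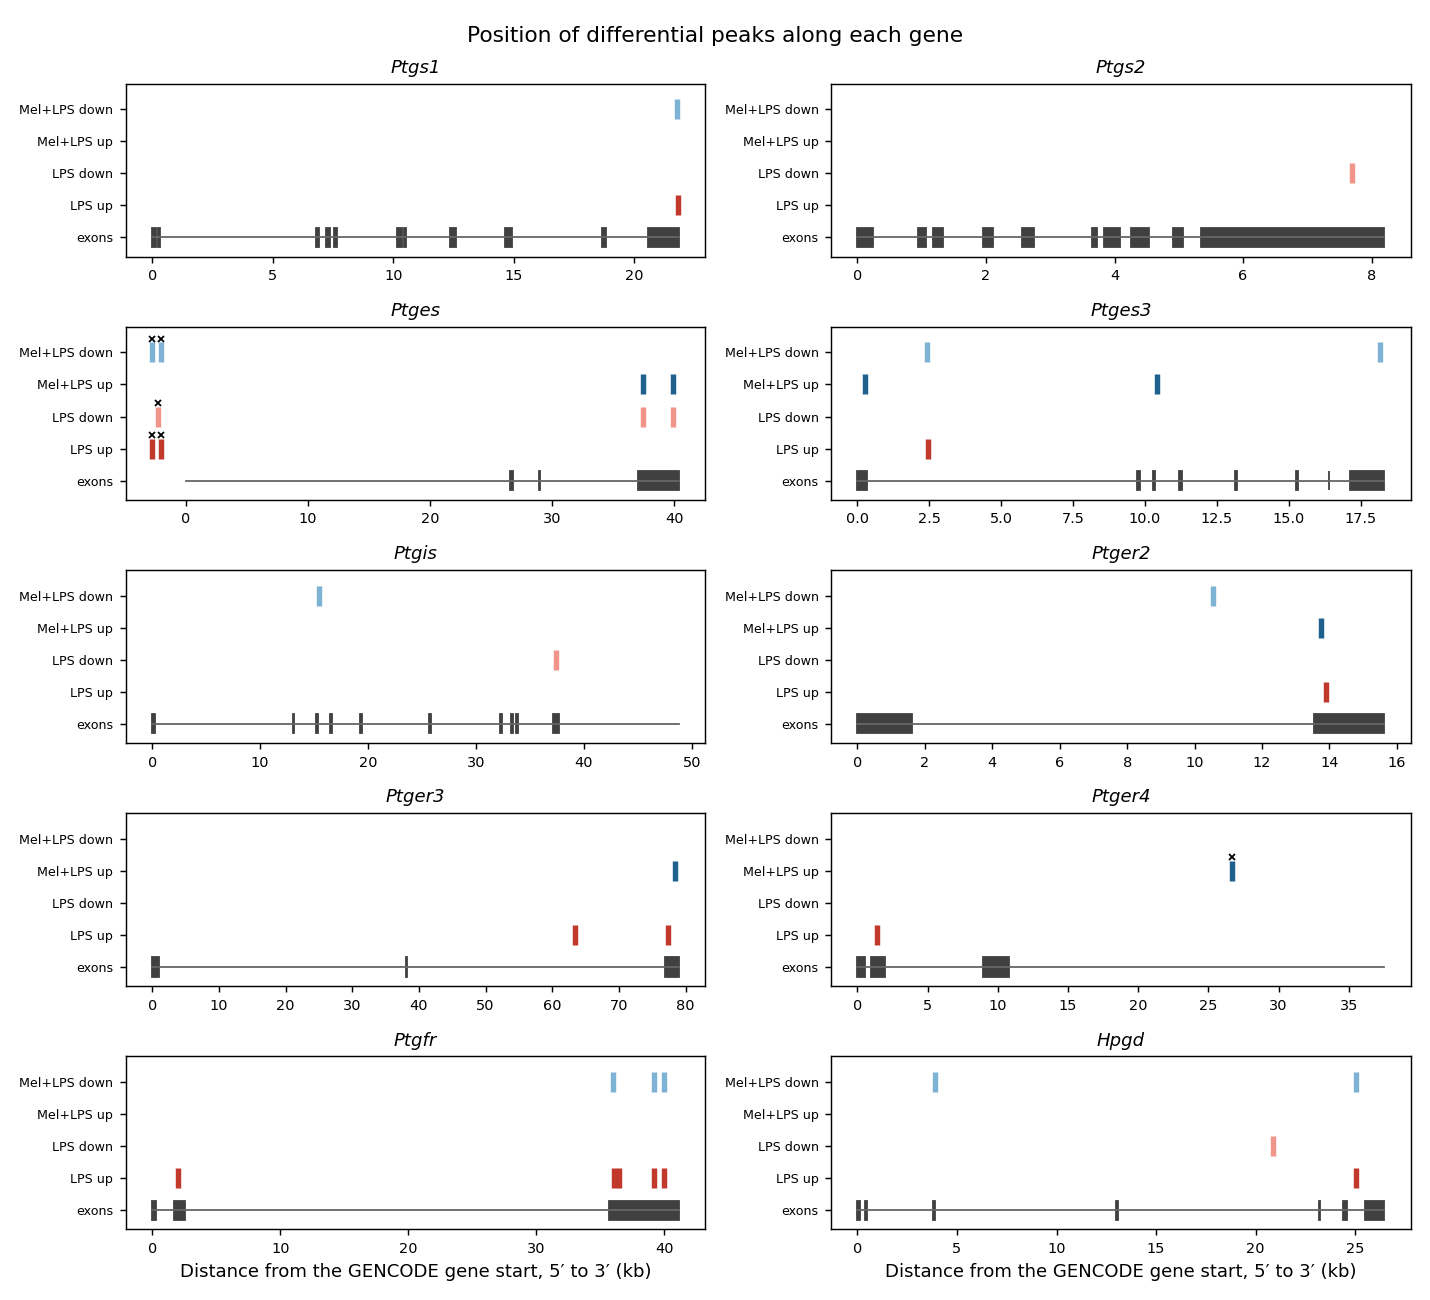
Position of each peak along the 10 genes (horizontal axis, distance from the GENCODE gene start in kb, 5′ to 3′; black boxes are exons of 1 GENCODE transcript), 1 row for each table. Crosses mark peaks on no exon of the gene that the rule left out, 5 upstream of Ptges and 1 within the Ptger4 span; the Hpgd pair and the Ptges3 pair stand over introns, and the Ptgs1, Ptgs2 and most Ptgfr peaks over the last exon.

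By the classes given in the tables, 7 of the 20 peaks (35%, Wilson 95% interval 18.1 to 56.7%, counting error only) lay in a 3′UTR and 8 (40%) in an intron. Another 4 lay in an exon (20%) and 1 in a 5′UTR. Over all peaks given to a gene by the same rule, 12.8% lay in a 3′UTR, 24.6% in an intron and 56.6% in an exon. Over all 40929 peaks, the shares were 20.6%, 17.2% and 39.5%. In these counts, peaks classed as exon made a smaller share among the prostaglandin genes than among all peaks, and those of the 3′UTR and intron a larger one. The intervals were 8.07 to 41.6% for exon and 21.9 to 61.3% for intron. The 3 intervals cover the 20.6% (3′UTR) and 39.5% (exon) of all peaks and the 24.6% (intron) of rule-given peaks. They leave out the other shares. Peaks of 1 gene, and peaks of both comparisons at 1 site, are counted separately here, so the intervals are narrower than the number of separate sites warrants.

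The 11 rule-given peaks with at least 50 bases on exons held 74 DRACH motifs on the strand of the gene, or 30.2 per 1000 bases, and each held at least 1. Over 12089 such peaks of all genes the value was 24.7 per 1000 bases, and 94.7% held at least 1. Of the 74 motifs, 16 and 12 came from the Ptgfr peaks at the stop codon, 1 site counted in both comparisons. With the peaks moved 100 bases toward the 5′ end the density was 31.0 per 1000 bases, beside 23.9 over all genes. Peaks wider than 100 bases keep part of their own bases after this move. It therefore cannot tell whether the higher density was particular to the bases of the peaks. GGACT was present in 5 of the 11 peaks (45.5%), beside 23.2% of all, but these were only 3 sites, since those of Ptgs1 and Ptgfr were counted in both comparisons, with Ptger3 as the other. The density of GGAC in the same 11 peaks was below that of all genes, 4.07 against 5.63 per 1000 bases, so the direction depended on the motif. ATTTA was present in 3 of the 11 (27.3%), beside 10.1%. Presence of a motif in a peak also depends on the length and region of the peak, which were not matched between these sets. With the peaks found by exon overlap added, 24 peaks held 136 motifs, or 27.6 per 1000 bases. Matches to these letters describe the peaks and do not locate a methylated base.

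The assignment of peaks changed the balance of directions. By overlap with GENCODE exons in place of the rule, LPS up peaks were found at 5 of 10 genes, where 19.5% of GENCODE protein-coding genes held one. LPS down peaks were found at 3 of 7 (Ptgs2, Ptges and Ptgis), beside 21.8%. Mel+LPS up peaks were found at 4 of 10 (Ptges, Ptges3, Ptger2 and Ptger3), beside 27.0%, and Mel+LPS down peaks at 4 of 10 (Ptgs1, Ptges3, Ptgfr and Hpgd), beside 14.4%. The contrast of 6 against 1 gene between Mel+LPS down and Mel+LPS up was not present by this count. On chromosomes 1 to 9 the LPS up genes by this count were Ptgs1, Ptger3 and Ptgfr, as many as the LPS down genes. LPS up and Mel+LPS down overlapped on exons of 2 of 10 genes (Ptgs1 and Ptgfr), beside 6.71%, and LPS down and Mel+LPS up on those of Ptges alone. In all, 13 peaks lay on exons of these genes but were not given to them by the rule. The tables assigned them to other genes (Gm52550, Ifi44l, Atp5b and 1110018N20Rik) or to the gene itself beyond the end of the transcript used.

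Other genes of the pathway showed both directions. Of 40 listed genes, 38 were in RefSeq as protein-coding, and 13 of them held a peak. These were 2 of 15 that release arachidonic acid, 4 of 10 other synthases, 5 of 9 other receptors, and 2 of 4 in transport and breakdown. The share of all protein-coding genes with a peak in any table was not computed, so the counts by role have no share beside them and differences between roles were not tested. LPS up peaks were found in 6 of the 38, beside 20.1% of all protein-coding genes, and LPS down peaks in 6 of the 27 on chromosomes 1 to 9, beside 22.0%. Mel+LPS up peaks were found in 7 of 38, beside 25.6%, and Mel+LPS down peaks in 3 of 38, beside 15.3%. These shares were close to that of all genes in LPS down and below it in the other tables, and the excess of Mel+LPS up over Mel+LPS down genes was also present over all genes (5613 against 3352).

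Pla2g4a encodes cytosolic phospholipase A2α, which frees arachidonic acid for the cyclooxygenases. It had LPS up peaks in exon 11 (score 3.21) and exon 8 (3.80) of 17, and an LPS down peak in exon 3 with a score of 8.09. Its Mel+LPS down peaks lay in introns (2.11 and 3.85), at none of these sites. Hpgds, a prostaglandin D synthase, had an LPS up peak in intron 4 with a score of 9.83 and an LPS up peak in its 3′UTR with 4.90. Elsewhere in that 3′UTR a site was LPS down (2.53) and Mel+LPS up (2.01). Within 1 gene, therefore, sites stood in opposite directions, as in Hpgd and Pla2g4a.

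Akr1b3, an aldo-keto reductase able to form prostaglandin F2α, had a site in exon 3 of 10 that was LPS down (1.36) and Mel+LPS up (2.69). Its relative Akr1b7 had an LPS down peak in the 3′UTR with a score of 4.53. Of the transporters, Slco2a1, which takes prostaglandins into cells, had an LPS down peak in an intron with a score of 8.42, and Abcc4, which exports them, had a site in intron 1 of 30 that was LPS up (1.46) and Mel+LPS down (9.99). The Slco2a1 and Abcc4 peaks were assigned to Rab6b and Gm41247, whereas their annotation named the transporters. Ptgdr2, a receptor of prostaglandin D2, had a peak with identical coordinates in LPS up (1.45) and Mel+LPS down (2.44), at chr19:10940575-10940729.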

How the data were processed

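The authors fragmented uterine RNA to about 100 nucleotides, immunoprecipitated m6A and sequenced IP and input libraries. Tools are named from the study's methods and the submitters' processing notes: reads were trimmed (Fastp 0.12.3) and aligned (STAR 2.5.2a), peaks were called with exomePeak2 4.2, treatments were compared with MACS2 (version given as 3.4), and peaks were annotated with ChIPseeker 1.22.1. The score deposited by the authors for each peak is a log10 likelihood ratio. How replicates were combined, and how treatments were scaled, is not given in the sources used here, and depth is unknown. The other deposited columns used hold positions. Their coordinates are those of GRCm38: all 17449 table transcripts with a RefSeq gene of that symbol lay within its GRCm38.p6 span (100%).

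The LPS down table ends within a line on chromosome 10, so chromosomes 1 to 9 were used. The members and lists were chosen with earlier results of these data known. All 10 genes are named, and other pathway genes (a fixed list of 40) where a peak scored at least 3 or both comparisons had peaks at 1 site. Peaks overlapped by at least 1 base. Positions and motifs came from 1 GENCODE M21 transcript for each of 21842 protein-coding genes, with motifs searched on the transcript strand only. With 1 score per peak, no test was made. Alternatives were other assignment rules, score thresholds of 3 and 6, other overlap rules, another motif and other windows. Scripts (Python 3.11.15, pandas 2.3.3, numpy 2.4.6, scipy 1.17.1, matplotlib 3.10.9) were tested on simulated data.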

Additional observations from a re-analysis of the deposited data

How the results depend on the processing

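Values were called moved where they differed by more than 1.5 times from those reported, since they have no replicate error. Of 74 alternative values 46 stayed within this and 28 did not. Without a test no call could be lost. At a score of at least 3, Mel+LPS down fell to 1 gene and 1 peak, Mel+LPS up to 0 genes and 0 peaks, and LPS up to 5 peaks. At a score of at least 6, LPS up, LPS down and Mel+LPS down each had 1 gene and 1 peak, and Mel+LPS up 0. By the assigned gene alone, wherever the peak lay, Mel+LPS up had 4 genes and 5 peaks. By overlap with the GENCODE span, LPS down had 4 genes and 5 peaks, and Mel+LPS up 5 genes and 7 peaks. By GENCODE exons Mel+LPS up had 4 genes. On chromosomes 1 to 9 Mel+LPS up had 0 genes, because Ptges3 is on chromosome 10. The share of all genes was not computed at these thresholds, by the assigned gene or by the span. It was also not computed for Mel+LPS up on chromosomes 1 to 9. Whether these changes are particular to the prostaglandin genes was therefore not tested. With GENCODE exons the median score of LPS up was 1.82 and that of LPS down 1.62. With GGAC in place of DRACH the density was 4.07 per 1000 bases (5.63 over all genes), a rarer motif by construction. Exon overlap was added after seeing the data for 3 values: it gave 4 LPS down and 6 Mel+LPS up peaks, 1 site shared by LPS up and Mel+LPS up, and 2 by LPS down and Mel+LPS up. No paired analysis was possible because the tables hold no value per replicate, and for the same reason no replicate could be left out. Depth is unknown, so a gene missing from a table may have been too weakly covered to be called.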
